A study of Mus musculus with 8 samples.

Results

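The replication-dependent histone genes were examined as the ATAC-seq peaks that lie at them, in mouse embryonic stem cells put into a paused state by mTOR inhibition. A peak was taken when its centre lay within 1 kb of a protein-coding gene whose symbol begins with H1f and a digit, H2ac, H2bc, H3c or H4c, and not within 1 kb of a tRNA gene. This gave 33 of the 134407 peaks in the table, 7 nearest to an H1 gene, 4 to an H2A gene, 11 to an H2B gene, 5 to an H3 gene and 6 to an H4 gene. The symbols also take in 5 H1 peaks at genes that are not replication-dependent: H1f0 and H1f10, which are replacement linker histones, H1f6 and H1f7 of the male germ line, and H1f8 of the oocyte. The peak at H2ac1 and H2bc1 belongs to a testis-type H2A and H2B pair. The wild-type E14 line, grown in serum and LIF on gelatin, was held for 24 h either in a control condition or with INK128 at 200 nM, which inhibits the kinase mTOR. There were 4 control and 4 paused libraries of 50000 live cells each. The labels name no vehicle for the control and do not say whether replicates are separate cultures, so the p-values measure only the spread between these libraries, all from a single line.

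Core histones H2A, H2B, H3 and H4 form the nucleosome, and H1 binds the linker DNA between nucleosomes. Replication-dependent histone genes are short, have no introns, sit in clusters in many near-identical copies, and are transcribed mainly in S phase, when new DNA has to be packaged. Their transcripts end in a stem-loop in place of a poly(A) tail, and their transcription is driven through NPAT, a target of cyclin E and CDK2. H2A and H2B genes are often arranged as divergent pairs that share the short stretch between their starts. In ATAC-seq, the Tn5 transposase cuts accessible DNA, so that the value of a peak measures how open the chromatin is and not how much RNA is made.

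The stretches before the start are shown for the gene with the strongest peak, H2bc12, and for the 7 genes whose start-site peak passed the test of paused against control cells. Each is the 250 bases upstream of the start, or for H2bc12 (177 bases) and H2ac13 (228 bases) the whole gap to the divergent gene. They run 5′ to 3′ on the gene's strand and come from RefSeq on GRCm38.p6. Capitals mark matches on either strand to the TATA box TATAAA, the CCAAT box CCAAT, the octamer ATGCAAAT known from H2B promoters, and AAACACA, known from H1 promoters.
H2bc12 (chr13:22035644-22035820, plus strand): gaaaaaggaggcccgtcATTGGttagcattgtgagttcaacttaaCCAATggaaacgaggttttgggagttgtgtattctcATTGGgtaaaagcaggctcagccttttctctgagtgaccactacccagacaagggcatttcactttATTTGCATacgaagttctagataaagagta
H2ac13 (chr13:21716184-21716411, plus strand): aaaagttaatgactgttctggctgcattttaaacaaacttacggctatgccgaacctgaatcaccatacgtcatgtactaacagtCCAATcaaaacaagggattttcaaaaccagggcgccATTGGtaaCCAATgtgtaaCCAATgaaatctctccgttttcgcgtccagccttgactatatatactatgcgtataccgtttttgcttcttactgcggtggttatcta
H2ac1 (chr13:23934187-23934436, plus strand): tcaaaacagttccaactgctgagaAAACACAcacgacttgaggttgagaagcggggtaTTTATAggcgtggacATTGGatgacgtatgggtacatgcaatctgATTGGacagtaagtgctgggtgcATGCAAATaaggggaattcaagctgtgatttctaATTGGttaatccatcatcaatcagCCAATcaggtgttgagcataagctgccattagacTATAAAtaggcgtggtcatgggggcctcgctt
H3c6 (chr13:23562386-23562635, minus strand): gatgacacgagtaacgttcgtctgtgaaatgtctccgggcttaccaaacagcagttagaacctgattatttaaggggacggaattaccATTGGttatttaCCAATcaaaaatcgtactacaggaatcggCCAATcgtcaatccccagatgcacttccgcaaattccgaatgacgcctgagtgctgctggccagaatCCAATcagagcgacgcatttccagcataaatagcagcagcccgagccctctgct
H4c3 (chr13:23698459-23698708, minus strand): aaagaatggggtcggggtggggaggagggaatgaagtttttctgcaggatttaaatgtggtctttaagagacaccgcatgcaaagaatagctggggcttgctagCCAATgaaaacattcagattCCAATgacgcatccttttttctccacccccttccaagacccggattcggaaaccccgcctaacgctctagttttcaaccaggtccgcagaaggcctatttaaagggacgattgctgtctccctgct
H4c11 (chr13:21734784-21735033, plus strand): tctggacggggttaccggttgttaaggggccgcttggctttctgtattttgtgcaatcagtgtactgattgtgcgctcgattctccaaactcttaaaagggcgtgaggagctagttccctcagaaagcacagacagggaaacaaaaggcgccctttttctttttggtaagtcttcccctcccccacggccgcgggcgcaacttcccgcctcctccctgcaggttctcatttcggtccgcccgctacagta
H1f2 (chr13:23738557-23738806, plus strand): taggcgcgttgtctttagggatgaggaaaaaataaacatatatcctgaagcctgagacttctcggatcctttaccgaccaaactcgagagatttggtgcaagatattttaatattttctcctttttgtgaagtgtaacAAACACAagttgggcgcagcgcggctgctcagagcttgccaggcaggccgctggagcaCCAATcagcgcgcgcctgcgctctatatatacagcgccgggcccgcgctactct
H1f10 (chr6:87981483-87981732, minus strand): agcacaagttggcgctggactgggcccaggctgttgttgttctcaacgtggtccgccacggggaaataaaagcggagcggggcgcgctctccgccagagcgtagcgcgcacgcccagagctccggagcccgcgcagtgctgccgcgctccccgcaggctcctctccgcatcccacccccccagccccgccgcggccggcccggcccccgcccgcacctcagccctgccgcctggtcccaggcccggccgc

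The H2bc12 stretch, towards H2ac12, holds an octamer match from 30 to 23 bases before the start and 3 CCAAT matches. Its peak covers 141 of these bases. The H2ac13 stretch, towards H2bc13, has 4 CCAAT matches, with 158 bases inside the peak. That of H2ac1 lies towards H2bc1, holds all 4 motifs, with TATAAA from 32 to 27 bases before the start and the octamer from 124 to 117, and contains its whole peak. H3c6 has 4 CCAAT matches and 117 bases in its peak, and H4c3 has 2 CCAAT matches and 177 bases in its peak. H1f2 has CCAAT from 54 to 50 and AAACACA from 112 to 106 bases before the start, but 0 of these bases lie in the H1f2 peak, which is centred 589 bp after the start, near the far end of the gene. H4c11 and H1f10 have none of these motifs in the 250 bases, and 0 of their bases lie in the peaks, which are centred 310 and 156 bp after the starts.

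RefSeq's promoter table had 63 entries for 62 of the 67 histone genes. CCAAT was found in the 250 upstream bases of 50 of the 63 (79.4%), against 33.8% of all 32851 promoters of that length. By class it was in 17 of 17 H2A, 15 of 15 H2B, 8 of 10 H3 and 3 of 11 H4 entries, and in 5 of the 5 replication-dependent H1 entries. TATAAA was found in 28 histone entries (44.4%; 12.4% of all promoters). The octamer was in 13 histone entries (20.6%; 1.6% of all), 6 of H2A and 7 of H2B, and AAACACA in 9 (14.3%; 6.25% of all), 4 of them at the 5 replication-dependent H1 genes. No matches of different motifs overlapped in these promoters (0 cases). The upstream bases of divergent H2A and H2B pairs overlap and either strand counts, so that the same site can be counted in both classes. Where the gap is shorter than 250 bases they reach into the neighbouring gene. At H2bc12 the TATAAA match lies outside the 177 bases shown. Of these entries, 35 belong to genes with a peak, 28 of which hold CCAAT, and 28 to genes without one, 22 of which hold it. TATAAA was in 12 of the 35 and 16 of the 28, the octamer in 10 and 3, and AAACACA in 7 and 2. No test of these differences was made. A match is a description of the letters and not a measured binding site.

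Not every histone gene had a peak. Of the 67 genes, 37 had at least 1 of the 33 peaks within 1 kb: 7 of 10 H1, 8 of 17 H2A, 10 of 16 H2B, 5 of 12 H3 and 7 of 12 H4 genes. On chromosome 3 none of the 10 genes of the H2ac18 to H2bc21 cluster had one, and the nearest peak was between 19205 and 46099 bp away. On chromosome 13, where 33 of 53 genes had a peak, 10 genes lay more than 10 kb from any peak, among them H1f4, H1f5, H3c11, H4c17 and H4c18. A further 9 genes lay between 1062 and 3065 bp from the nearest peak, and H4c8 had only a peak that is also near a tRNA gene. How reads that map equally well to several copies were handled is not given in the sources used here, so that a missing peak is not a measurement of closed chromatin, and values at near-identical copies may hold reads of their relatives.

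Most of these peaks lie near the start of a gene. The centre lay within 1 kb of a listed histone start for 25 of the 33, at a median distance of 112 bp and at most 589 bp. Many of these genes are shorter than 1 kb, so that a start-site peak can lie well inside the gene, as at H1f2, H1f3 and H4c11. For 9 peaks 2 histone genes lay within 1 kb, and 5 of those were between an H2A and an H2B gene, so that such a value cannot be assigned to either gene. The peaks were strong. A mean value above 100 was reached by 22 of them, each at a strength percentile of 89.3 or more among all peaks, and 19 were among the strongest 10% of tested peaks, a limit of 149. The other 11 peaks had means between 10.6 and 80.5.

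The libraries held 4434037 to 21161767 reads in peaks, as recovered from the deposited values, with the most in control replicate 1. A single histone peak held between 5 and 1005 reads in a library, and the 22 strong ones at least 73, so that changes at the weak peaks were measured less precisely: the SE of the log2 change was 0.10 to 0.13 for the strong peaks and up to 0.35 at H1f7. Of the 10 stem cell marker genes 9 had a peak within 1 kb of the gene and Pou5f1 had none. All 5 primitive endoderm, 5 trophoblast and 5 fibroblast marker genes had one too, so that the presence of peaks does not check the cell type.

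Compared with control cells, 9 histone peaks were higher and 1 was lower in paused cells at a limma-trend adjusted p under 0.05, and 23 did not pass. Values throughout are the deposited scaled reads per peak, and log2 changes are on the log2(value + 1) scale, paused against control, a scale that understates the change of low peaks. A different share of cells with a site open and a different openness per cell cannot be told apart in such bulk libraries. The 9 peaks are 27.3% of the 33. The share called higher was 11.0% of all 127402 tested peaks and 18.0% of the strongest 10%, and the shares called lower were 2.91% and 0.181%. Of the 19 histone peaks among the strongest 10%, 4 were called higher (21.1%), and at 15.8% of them the paused values were all above the control values. Among the 25 start-site peaks 7 were called higher (28.0%) and 0 lower by limma-trend. None of the 25 was lower at an unadjusted p under 0.05 (0 peaks), or with edgeR (0) or DESeq2 (0). Of all tested peaks within 1 kb of a RefSeq start, whatever their strength, 11.3% were called higher and 1.06% lower. Of those that were also among the strongest 10%, 12.5% were called higher. At 18.7% of these strong peaks near a start the paused values were all above the control values. The log2 change was above 0 for 29 of the 33 peaks and had a median of 0.23, against 0.10 over all tested peaks and 0.20 over the strongest 10%. All 22 peaks with a mean above 100 had a change above 0, with a median of 0.25 and a range from 0.01 to 0.52. A change above 0 was also found at 61.3% of all tested peaks and 93.4% of the strongest 10%. For strong peaks near a RefSeq start the share was 95.3%. These directions depend on the scaling: of the 33 changes 25 were above 0 after TMM rescaling, and 20 with total reads or after a loess correction. Of the 22 strong peaks, total reads turned 5 and a loess correction 8 below 0. The 4 paused values were all above the 4 control values at 6 of the 33 peaks (18.2%), compared with 13.0% of all tested peaks and 23.2% of the strongest 10%. No histone peak had all paused values below all control values (0 of 33), compared with 4.36% of all tested peaks and 0.283% of the strongest 10%.

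**Figure D1:**
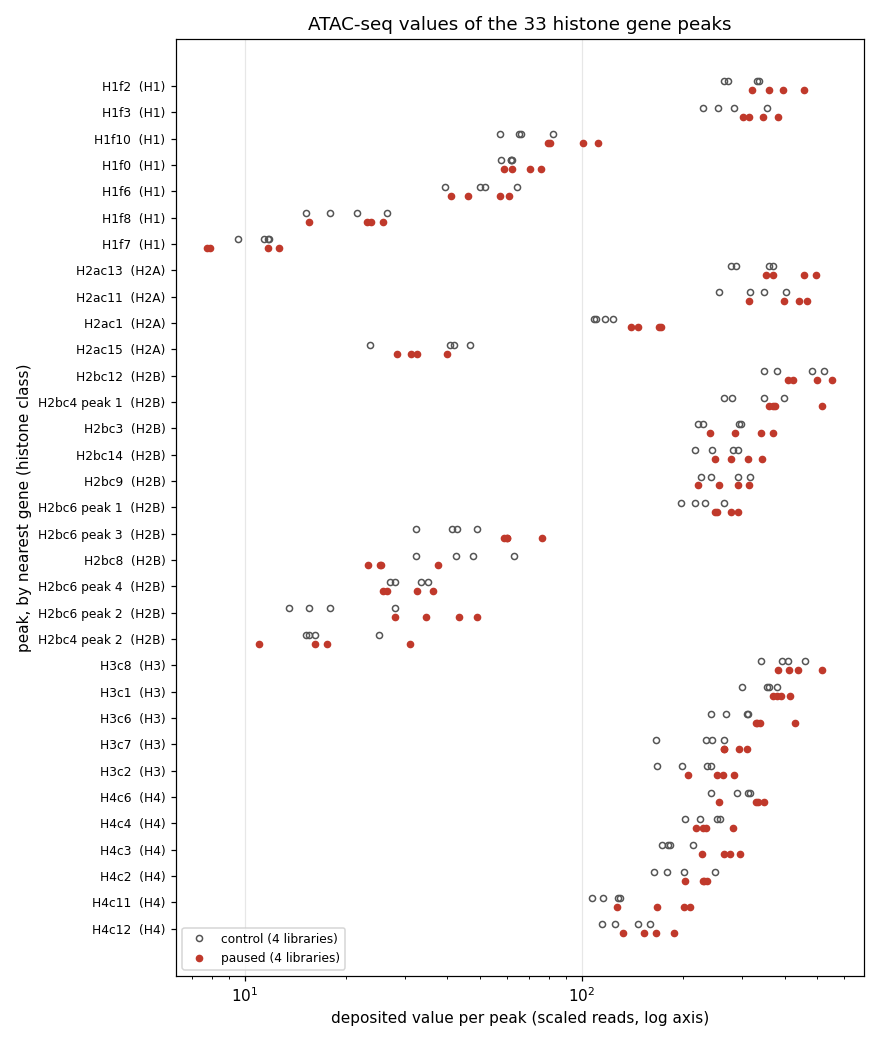
Deposited value (scaled reads, log axis) of each of the 33 peaks, labelled by nearest gene and class, in the 4 control (open) and 4 paused (filled) libraries. Start-site peaks of the core histone genes with means above 100 lie between 108 and 554, and the groups overlap at all but 6 peaks.

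**Figure D2:**
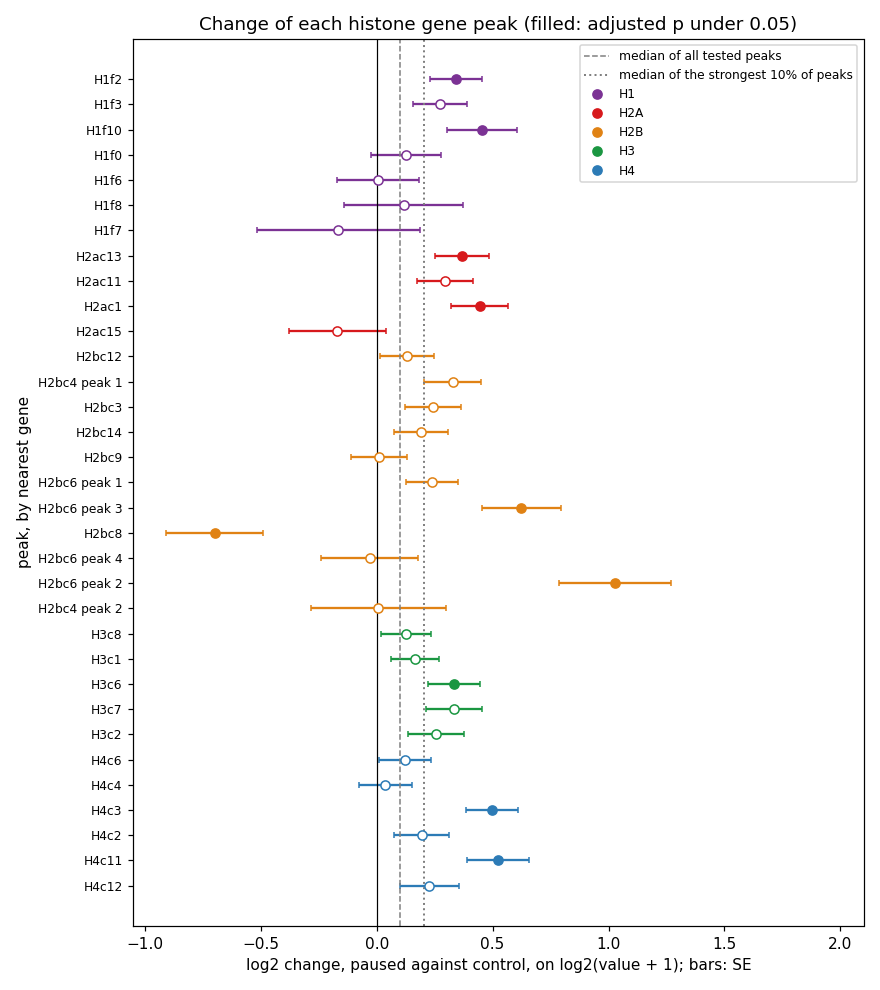
Log2 change (paused against control) with its SE for the same peaks, filled where the adjusted p is under 0.05, with the medians of all tested peaks (0.10, dashed) and of the strongest 10% (0.20, dotted). The changes run from -0.70 at H2bc8 to 1.03 at the second H2bc6 peak. With scaling to total reads or a loess correction 20 of the 33 changes are above 0, against 29 here. As deposited, 61.3% of all tested peaks and 93.4% of the strongest 10% have a change above 0.

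The number of calls differed between scalings and between sets of libraries, and the cause was not tested. With TMM rescaling 4 histone peaks were called higher (5.98% of all peaks), with scaling to total reads 2 (4.50%), and with a loess correction for peak strength 1 (5.10%); the lower call was made in each of these. Leaving out 1 library lowered the calls from 10 to 6 without control replicate 1, and to 5 without paused replicate 3 and to 5 without paused replicate 4. The shares of all tested peaks called higher were then 8.38%, 9.29% and 7.02%, against 11.0% with all libraries. Shares called lower were 1.83%, 3.05% and 2.04%, against 2.91%. The median change stayed above 0 in all 18 alternative fits, and was 0.13 after TMM rescaling, where all tested peaks had a median of 0.00, 0.07 with total reads (all peaks -0.05) and 0.04 after loess correction (all peaks -0.01). Without control replicate 1 it was 0.15, 0.047 above that of all tested peaks, where the gap was 0.13 with all libraries. The gap was 0.073 without control replicate 2, 0.071 without paused replicate 4 and 0.21 without control replicate 3. The authors' deposited table lists 9 histone peaks as higher and 0 as lower at an FDR under 0.05, where 9.19% and 1.80% of all peaks are. They are the same 9 as here, with log2 folds from 0.29 to 0.71, which is not independent evidence since the values are shared.

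Histone H4, the most conserved core histone, was represented by 6 start-site peaks, and 2 of them rose. At H4c3 (chromosome 13, 23698435 to 23698635, centred 77 bp before the start) the control values were 181, 183, 213 and 173 and the paused values 227, 265, 295 and 275. Every paused library was above every control library there, with means of 188 ± 17.7 and 266 ± 28.4 (SD, n = 4 each; log2 change 0.50 with an SE of 0.11, adjusted p = 0.00246 by limma-trend). H4c11 (21735244 to 21735444), centred 310 bp into the gene, had control values of 108, 116, 130.4 and 128 and paused values of 127, 167, 209 and 202. Only paused replicate 1 fell within the control range, and the log2 change was 0.52 (SE 0.13, limma-trend adjusted p = 0.00705). The remaining 4 did not pass. H4c12, H4c2, H4c6 and H4c4 had log2 changes of 0.23, 0.19, 0.12 and 0.04, with limma-trend adjusted p from 0.244 to 0.863. H4c6 (23551606 to 23551806) has the strongest H4 peak, with a mean of 289.7 ± 34.2 in control and 316 ± 41.4 in paused libraries (SD, n = 4). H4c4 (23581429 to 23581629) had the smallest change of the class, and its sign turned negative with TMM rescaling and total reads among others. The H4c8 peak (23531271 to 23531471), left out because of a tRNA gene within 1 kb, had means of 301 ± 47.97 and 307 ± 40.5 (SD, n = 4; log2 change 0.03, limma-trend adjusted p = 0.879).

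Histone H3, whose tail carries many of the best known modifications, had 5 peaks with means above 100, and 1 of them rose. That was the H3c6 peak (23562302 to 23562502) at the start of the gene. Its control values were 241, 309, 312 and 269 and its paused values 331, 329.6, 428 and 337. The groups did not overlap, and paused replicate 3 stood well above the other paused libraries (log2 change 0.33 with an SE of 0.11, adjusted p = 0.0389 by limma-trend). At H3c7 (23544368 to 23544568) the control values were 167, 244, 234 and 265 and the paused values 265, 265, 309 and 293. The highest control and lowest paused values were level when rounded, so that the groups only just failed to overlap, and the log2 change of 0.33 (SE 0.12) had a limma-trend adjusted p of 0.0552. H3c2, the peak between H3c1 and H4c1, and H3c8 had log2 changes of 0.26, 0.16 and 0.13 (limma-trend adjusted p 0.156, 0.294 and 0.466). H3c8 (23535217 to 23535417) is the strongest H3 peak, with 401 ± 48.2 in control and 437 ± 57.6 in paused libraries (SD, n = 4), and with total reads or a loess correction its sign turned negative.

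H2A and H2B form the dimers at the outer faces of the nucleosome. Of the 5 peaks between an H2A and an H2B gene 2 rose. At H2ac13 and H2bc13 (21716254 to 21716454) the control values were 278, 287, 369 and 360.03 and the paused values 369, 352, 495 and 457. The lowest paused value lay within the control range, and the log2 change was 0.37 (SE 0.12, limma-trend adjusted p = 0.0278). At the testis-type pair H2ac1 and H2bc1 (23934222 to 23934422) the control values were 110.3, 109, 124 and 118 and the paused values 146, 140.4, 172 and 169.9. These groups did not overlap, with means of 115 ± 6.90 and 157 ± 16.2 (SD, n = 4; log2 change 0.44 with an SE of 0.12, adjusted p = 0.0121 by limma-trend).

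The other 3 pairs did not pass. The strongest of all histone peaks was that of H2bc12 and H2ac12 (22035680 to 22035880), with control values of 347, 381, 523 and 483 and paused values of 409.5, 424, 554 and 499. The groups overlapped over most of their range (log2 change 0.13 with an SE of 0.12, adjusted p = 0.486 by limma-trend), and the sign turned negative with total reads or a loess correction. H2bc4 and H2ac6 had a log2 change of 0.33 (limma-trend adjusted p = 0.0633) and H2ac11 and H2bc11 one of 0.29 (limma-trend adjusted p = 0.0999). Start-site peaks of H2B genes with no H2A gene within 1 kb, at H2bc3, H2bc6, H2bc14 and H2bc9, had log2 changes of 0.24, 0.24, 0.19 and 0.01, with limma-trend adjusted p from 0.149 to 0.969. A weak peak 936 bp from H2ac15 (21752341 to 21752541) had 38.1 ± 10.1 in control and 32.99 ± 4.88 in paused libraries (SD, n = 4; log2 change -0.17 with an SE of 0.21, adjusted p = 0.630 by limma-trend).

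The changes of largest size were found away from the start sites. H2bc6 has a long annotated span, with a listed start near either end, and 3 weak peaks lie inside the span. They are between 6113 and 12159 bp upstream of the nearer listed start and downstream of the other. The nearest of these, the second H2bc6 peak (23591983 to 23592183), had control values of 17.98, 15.5, 13.6 and 27.9 and paused values of 34.6, 48.9, 27.9 and 43.4. It rose by 1.03 on the log2 scale (SE 0.24, limma-trend adjusted p = 0.00320), although control replicate 4 and paused replicate 3 were level and a library held only 8 to 52 reads. The third H2bc6 peak (23595698 to 23595898) had 41.1, 48.97, 32.2 and 42.6 in control and 59.99, 59.9, 58.96 and 76.2 in paused libraries, with no overlap (log2 change 0.62 with an SE of 0.17, adjusted p = 0.0112 by limma-trend). The fourth (23598029 to 23598229) had a log2 change of -0.03 (limma-trend adjusted p = 0.942). The single fall was a peak 835 bp beyond the end of H2bc8 (23572598 to 23572798), with 32.1, 47.8, 42.3 and 63.2 in control and 25.4, 25.2, 23.3 and 37.5 in paused libraries. Paused replicate 4 lay within the control range (log2 change -0.70 with an SE of 0.21, adjusted p = 0.0214 by limma-trend), and the authors' deposited table gives it an FDR of 0.0721.

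Linker histone H1 had 7 peaks. The replication-dependent H1f2 rose: its peak (23739296 to 23739496) had control values of 265, 271, 337 and 332 and paused values of 321, 359.6, 456 and 396. Paused replicate 1 lay within the control range (log2 change 0.34 with an SE of 0.11, adjusted p = 0.0363 by limma-trend). H1f3 (23555388 to 23555588), centred 456 bp after its start, went from 280.4 ± 54.8 to 336 ± 36.0 without passing (SD, n = 4; log2 change 0.27 with an SE of 0.12, adjusted p = 0.114 by limma-trend). Of the 5 H1 peaks outside the replication-dependent group 1 rose, at the replacement gene H1f10 (chromosome 6, 87981226 to 87981426). The control values there were 64.99, 82.4, 66.04 and 57.3 and the paused values 112, 80.4, 101 and 79.7, so that control replicate 2 lay above 2 of the paused libraries (log2 change 0.45 with an SE of 0.15, adjusted p = 0.0376 by limma-trend).

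H1f0, the replacement linker histone of non-dividing cells, had 60.8 ± 2.17 in control and 66.7 ± 7.69 in paused libraries at a peak over the end of the gene, centred 2383 bp after its start (chromosome 15, 79030495 to 79030695; SD, n = 4; log2 change 0.13 with an SE of 0.15, adjusted p = 0.623 by limma-trend). Total reads and loess correction turned its sign. The germ line genes had weak peaks. H1f6 (chromosome 13, 23696169 to 23696369) had 51.3 ± 10.2 and 51.4 ± 9.35, H1f8 (chromosome 6, 115945016 to 115945216) 20.3 ± 4.84 and 22.0 ± 4.48, and H1f7 (chromosome 15, 98257019 to 98257219) 11.1 ± 1.08 and 10.02 ± 2.56 (SD, n = 4 each). Their limma-trend adjusted p lay between 0.796 and 0.989, and H1f7, with 5 to 33 reads in a library, had a log2 change of -0.17 with an SE of 0.35.

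The 10 calls differed in how far they held over 18 other fits, including 8 that each left out a library. The second H2bc6 peak was tested in 17 and kept its call in all of them. It dropped out of the fit that required at least 10 reads in every library, with 8 reads in control replicate 3. H4c3 lost it in 1, the loess correction (adjusted p = 0.0587; range over the fits 0.000489 to 0.0587). H4c11 lost it in 3, the third H2bc6 peak in 4, H2ac1 and H2bc8 in 5 each, H2ac13 and H3c6 in 9 each, and H1f2 and H1f10 in 10 each. No called peak changed its sign in any of them.

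**Figure D3:**
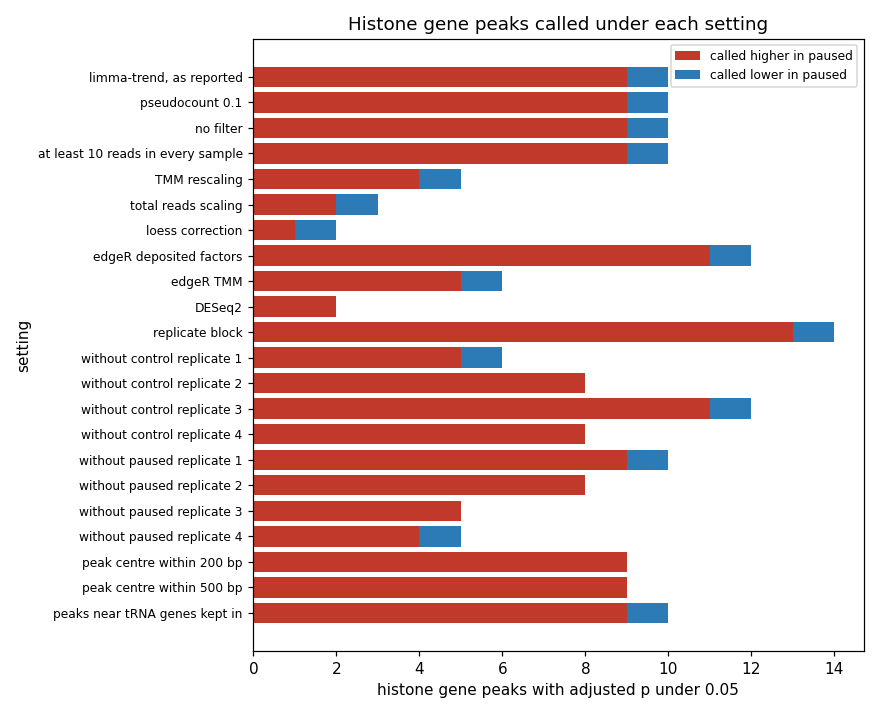
Number of histone gene peaks with an adjusted p under 0.05, higher (red) or lower (blue) in paused cells, for the reported fit and each alternative. The fewest are 2, with a loess correction and with DESeq2, against 10 in the reported fit. Of all tested peaks 5.10% were called higher with the loess correction and 3.12% with DESeq2, against 11.0% in the reported fit.

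Summed over each class, the values were higher on average in paused libraries for all 5 classes, but in each class the groups overlapped, and for H2B the sign turned negative after a loess correction. In every class each paused sum lay above the control sum of the same replicate number, though the numbers are not known to be pairs. As shares of all reads in peaks this held for H1, H2A and H4 but not for H2B and H3. H4 sums were 1023, 1106, 1326 and 1214 in control and 1195, 1341, 1550.05 and 1446 in paused replicates 1 to 4, 18.5% more. H3 sums were 1216, 1520.4, 1554 and 1589 in control and 1564, 1640.4, 1953 and 1712 in paused libraries, 16.8% more. The lowest paused library lay below the highest control library in both classes.

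H2A sums were 686, 757, 938 and 848 against 859, 919.5, 1165 and 1107, 25.5% more, though 3 of these 4 peaks are shared with an H2B gene. For H2B they were 1638, 1740.2, 2211 and 2118 against 1894, 2082, 2453 and 2364, 14.1% more, and for H1 702, 739, 908 and 823 against 874, 902, 1081 and 989.97, 21.3% more. When each shared peak was counted for every class within 1 kb, the log2 ratio was 0.24 for both H2A and H2B, so that the order of these classes rests on how shared peaks are assigned. The sum over all 33 peaks was 6164 ± 748 in control and 7274 ± 800.03 in paused libraries (SD, n = 4), 18.0% more, where the sum over all peaks was 11.5% and that over the strongest 10% 15.5% more. These sizes depend on the scaling: with total reads the log2 ratio of the sums was 0.032 for H2B, 0.067 for H3, 0.086 for H4, 0.12 for H1 and 0.17 for H2A, against 0.19, 0.22, 0.24, 0.28 and 0.33 as deposited. Without control replicate 1 the ratio was 0.12 for H2B and 0.14 for H3. As a share of all reads in peaks, which does not depend on the deposited scaling, the 33 peaks held 0.0822% ± 0.00892 in control and 0.0869% ± 0.00689 in paused libraries (SD, n = 4), 5.72% more, with overlap. By class the shares were 2.22% (H2B), 4.75% (H3), 6.13% (H4), 8.69% (H1) and 12.3% (H2A) more, again with overlap. No test was made of these sums, because the peaks were chosen as a list.

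**Figure D4:**
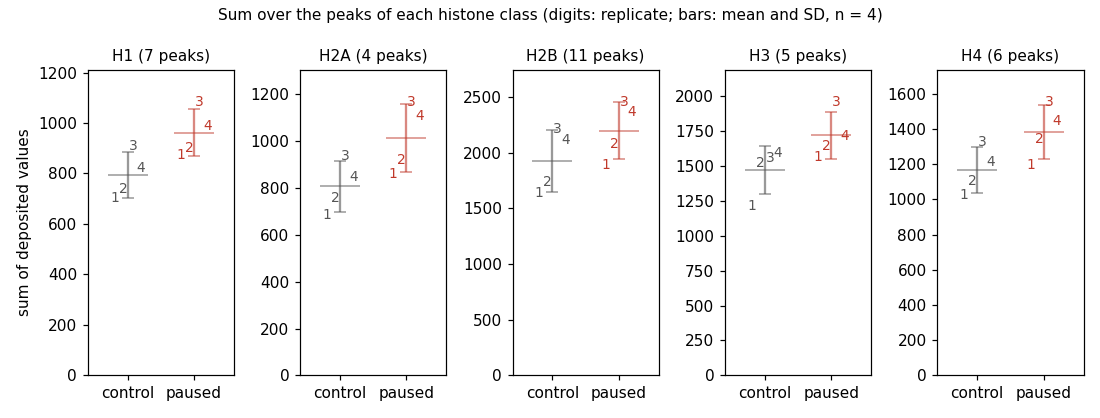
Sum of the deposited values over the peaks of each class, for every library (digits give the replicate), with mean and SD (n = 4). In each class paused libraries lie higher on average but overlap with control libraries, with control replicate 1 lowest of all; the H2B difference turns negative after a loess correction.

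The histone peaks varied together from library to library within each group. At all 22 peaks with a mean above 100, the highest control library was replicate 3 (18 peaks) or 4 (4 peaks), and the highest paused library was replicate 3 (18 peaks) or 4 (4 peaks). Replicate 3 or 4 was the highest control library at 58.2% of the strongest 10% of peaks and the highest paused library at 76.1%. Control replicate 1 was the lowest control library at 17 of the 22 peaks (77.3%; 45.3% of the strongest 10%). Control replicate 1 is also the library with the most reads, and control replicate 3 that with the fewest; in paused libraries replicate 2 had the fewest reads (5216700) and replicate 4 the most (7238935). The part of depth in this order was not tested.

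**Figure D5:**
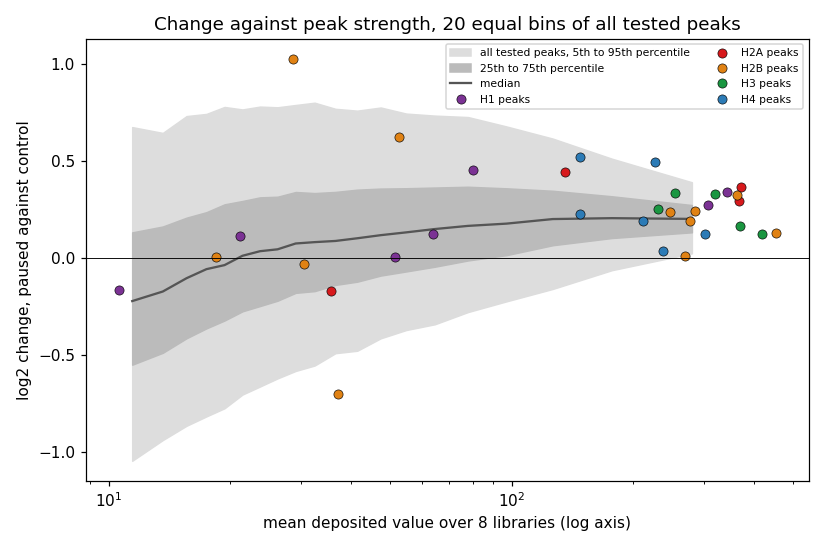
Log2 change against mean deposited value (log axis) for the histone peaks, coloured by class, over the median and percentile bands of all tested peaks in 20 bins of strength. The 22 peaks with means above 100 all lie above 0 here, as do 93.4% of the strongest 10% of tested peaks. The weaker histone peaks run from -0.70 to 1.03. Of the 22, H4c4, H2bc9, H2bc12, H3c8 and H4c6 turn negative with total reads. With a loess correction 8 do (also H2bc14, H4c2 and the peak between H3c1 and H4c1).

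The chromosome 13 histone genes lie among tRNA genes, which are transcribed by RNA polymerase III. From 1 kb before the first to 1 kb after the last histone peak there lay 150 other tested peaks, of which 12 (8.00%) were called higher and 38 (25.3%) lower, with a median log2 change of -0.22. Of these, 52 were within 1 kb of a tRNA gene, and 28 of them were called lower and 0 higher by limma-trend (median -0.44; higher at an unadjusted p under 0.05, 0; by edgeR, 0; by DESeq2, 0). The other 98 had 12 called higher and 10 lower, with a median of -0.04 and a median value of 29.0, well below that of the histone peaks (median mean 231). The 29 histone peaks of chromosome 13 had a median change of 0.24, with 8 called higher (27.6%) and 1 lower. Of all tested peaks 11.0% were called higher and 2.91% lower, with a median of 0.10. Of the strongest 10% these were 18.0% and 0.181%, with a median of 0.20. No test was made between the histone peaks and these other sets.

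Genes that act on histone supply were read out in the same fit, through peaks within 1 kb of each gene. For histone gene transcription and pre-mRNA processing (26 genes, among them the activator Npat and the stem-loop binding protein Slbp), 6 of 74 peaks were called higher and 0 lower by limma-trend (lower at an unadjusted p under 0.05, 3; by edgeR, 0; by DESeq2, 0), with a median change of 0.12. The smallest adjusted p was at the exonuclease gene Xrn1 (chromosome 9, 95958775 to 95958975), from 48.4 ± 11.3 to 73.4 ± 4.35 (SD, n = 4; log2 change 0.62 with an SE of 0.16, adjusted p = 0.00939 by limma-trend). For core histone genes outside the symbol rule, mostly replacement variants such as H3f3a and H2az1, 3 of 18 peaks were called higher and 0 lower by limma-trend (lower at an unadjusted p under 0.05, 0; by edgeR, 0; by DESeq2, 0), with a median of 0.24. The clearest was at the start of H3f4 (chromosome 11, 58961632 to 58961832), from 77.1 ± 3.93 to 107 ± 11.04 (SD, n = 4; log2 change 0.47 with an SE of 0.13, adjusted p = 0.0166 by limma-trend). For histone chaperones, which carry and deposit histones, 5 of 111 peaks were called higher and 4 lower (median 0.08). The largest support was at a Cabin1 peak 47926 bp from the start (chromosome 10, 75649112 to 75649312), with a log2 change of 0.71 (limma-trend adjusted p = 0.000114). For a fall it was at a weak peak of Nap1l1, 3320 bp from the start (chromosome 10, 111476447 to 111476647). The Nap1l1 peak went from 23.9 ± 4.78 to 11.6 ± 3.04 (SD, n = 4, log2 change -0.999, limma-trend adjusted p = 0.0158). For DNA replication genes 8 of 138 peaks were called higher and 1 lower (median 0.10). A peak inside Lig1, the DNA ligase of the replication fork (chromosome 7, 13297755 to 13297955), rose from 70.2 ± 6.19 to 189 ± 29.4 (SD, n = 4; log2 change 1.41 with an SE of 0.13, adjusted p = 1.19e-08 by limma-trend). A very weak one inside E2f1 (chromosome 2, 154563336 to 154563536) fell from 14.5 ± 1.83 to 6.42 ± 3.74 (SD, n = 4; log2 change -1.25, limma-trend adjusted p = 0.0378). The called share was 8.11% for the processing genes and also for the chaperones, 16.7% for core histone genes outside the rule and 6.52% for replication genes, against 13.9% of all tested peaks in either direction. Mcm2 stands in both the chaperone and the replication list.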

How the data were processed

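ATAC-seq values of 4 control and 4 paused libraries came from a single table. The submitters' processing notes name FastQC, Trim Galore, Bowtie2 2.4.1, MACS3 3.0.3, DiffBind 3.16.0 and the build mm10, without role or order; the handling of the Tn5 offset and of reads with several matches is not given in the sources used here. The signal deposited by the authors is reads per 201 bp peak divided by 1 factor per sample: 100% of values in each column were whole multiples of 1 step (within 0.0051). The authors also deposited log2 means and a log2 fold, and p-values with an FDR, per the file headers; such values are printed only under the name of that table. All per-sample columns were used (0 left out).

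Genes, tRNA genes and promoters came from RefSeq tables of GRCm38.p6, the build named mm10 in the notes; exons were not analysed here. The class of a peak is that of the nearest gene span. limma-trend (limma 3.58.1, R 4.3.3) was fitted to log2(value + 1) over all 127402 peaks with a mean of at least 10, with Benjamini-Hochberg adjustment over all of them and no covariates; all 33 histone peaks passed this filter. Alternatives were edgeR 4.0.16 and DESeq2 1.42.0 on the recovered reads (with the deposited factors edgeR called 16424 peaks higher and 4621 lower), other scalings, filters, a pseudocount of 0.1, distances of 200 and 500 bp, a replicate-number block and leaving out each library. Depth is the reads in peaks, and SEs cover the spread between libraries; PCR copies of a molecule are not independent. A count of 0 would allow 3 reads, a value of 1.04 in control replicate 1 and 5.08 in control replicate 3.

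Named peaks are the called ones, the strongest peak, largest rise and largest fall of each class, all H1 peaks outside the replication-dependent group and, per list, the smallest adjusted p in each direction; other peaks are named to complete a class. The members and lists were chosen with earlier results of these data known.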

Additional observations from a re-analysis of the deposited data

Results flagged for a closer look

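Among 50 groups of 4 values (20 named peaks and 5 class sums, in control and in paused libraries), 1 library lay far from its 3 fellows in 4, by Dixon's criterion at the 95% level. Chance flags about 1 in 20 such groups. At H3c6 paused replicate 3 stood at 428, far above the other paused libraries. At the peak beyond H2bc8 paused replicate 4 stood at 37.5, above the others. At the third H2bc6 peak paused replicate 4 stood at 76.2, above the others. At H1f0 control replicate 3 stood at 57.6, below the other control libraries.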

How the results depend on the processing

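The number of histone peaks called, 10 as reported, was 5 after TMM rescaling, 3 with total reads, 2 after a loess correction, 6 with edgeR after TMM and 2 with DESeq2. Of all tested peaks, the shares called higher and lower were 5.98% and 4.17% after TMM rescaling, and 4.50% and 5.38% with total reads. They were 5.10% and 3.50% after a loess correction, 7.13% and 5.54% with edgeR after TMM, and 3.12% and 1.42% with DESeq2. Leaving out each library in turn gave 5 to 12 calls: 6 without control replicate 1 and 5 without paused replicate 3 or 4. In these fits 7.02% to 9.99% of all tested peaks were called higher and 1.81% to 3.05% lower. Other distances to the gene, the filters and the pseudocount gave 9 or 10. A block on the replicate number gave 14 calls, where 13.6% of all tested peaks were called higher and 3.63% lower. The correlation of same-numbered libraries was 0.036 to 0.133, and that of differently numbered ones -0.105 to 0.070. Not every library was closest to its own number: control replicate 2 was closer to paused replicate 1. The reported fit did not take the numbers as pairs, and whether they are pairs was not tested. The median change had the value 0.07 with total reads and 0.04 after a loess correction. The cause of these differences was not tested, but TMM moved the median of all tested peaks from 0.10 to 0.00.

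The log2 ratio of the class sums was 0.12 for H1 with total reads, and after a loess correction 0.088 for H1, 0.12 for H2A, 0.017 for H3, 0.036 for H4 and, with the sign turned, -0.010 for H2B. Signs also turned for 8 of the named peaks, none of them called. With total reads and a loess correction the changes were -0.027 and -0.079 at H2bc12, -0.031 and -0.084 at H3c8, -0.035 and -0.086 at H4c6, and -0.029 and -0.037 at H1f0. H4c4 had -0.064 with TMM, -0.12 with total reads, -0.17 with loess, -0.048 with edgeR after TMM and -0.046 with DESeq2. H1f6 had -0.095, -0.15, -0.14, -0.082 and -0.081 in the same order. H1f7 had 0.063 with loess, and H1f8 -0.034 with total reads. With 1 library left out, H4c4 ranged from -0.039 to 0.084 (negative without control replicate 1 or paused replicate 3), H1f6 from -0.11 to 0.12 (negative without control replicate 2 or 4, or paused replicate 3 or 4) and H1f8 from -0.0052 (without control replicate 3) to 0.27. Over the named peaks and alternatives, 269 values kept direction and call, 56 lost the call, 5 gained it (all at H3c7) and 27 turned. Depth limits the weak peaks, where a library held as few as 5 reads.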
